A study of Mus musculus with 18 samples.

Results

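The 9 Eμ-Myc lymphomas of Prdm11 knockout (KO) mice were divided by their level of Enpep, and all other genes were compared between the sides. Enpep was read from the only probe set annotated to it alone. A tumour counted as Enpep-high at a log2 level of 6.0 or more and as Enpep-low below that, which placed 6 KO tumours on the high side and 3 on the low side, out of 18 tumours in the series. Since the level of Enpep chose the sides, it is given below as a description, with no test. All mice were C57BL/6 per the labels and had the Eμ-Myc transgene, whose immunoglobulin heavy chain enhancer switches Myc on in B lineage cells. All 9 KO tumours, Enpep-high and Enpep-low alike, therefore shared the transgene and the loss of Prdm11. The 9 tumours from Eμ-Myc mice with wild-type Prdm11 (WT) served as a reference level only. Each tumour was a spleen taken at end stage from a separate mouse, frozen whole and homogenised with no sorting stated, and hybridised to 1 Affymetrix array. Neither the age nor the sex of the mice was given in the sources used here.

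Enpep encodes glutamyl aminopeptidase, a surface enzyme known to immunologists as BP-1 or 6C3, which cleaves acidic residues from the end of peptides such as angiotensin II. In mouse bone marrow, BP-1 appears on late pro-B and pre-B cells and is lost as immature B cells form. In those same stages the surrogate light chain, made of VpreB and λ5, pairs with the immunoglobulin heavy chain as the pre-B cell receptor. This receptor signals through Syk, Blnk and Btk. Later stages carry a complete B cell receptor, CD20, CD22, MHC class II molecules and receptors for homing to follicles. Lymphomas of Eμ-Myc mice are known to range from pre-B to immature B phenotypes.

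Levels are log2 intensities after RMA, and differences are Enpep-high minus Enpep-low. Array medians ran from 35.3 to 41.7 on the linear scale, or 5.14 to 5.38 on the log2 scale. The median correlation of each KO array with the other arrays was between 0.957 and 0.976, and the array that stood furthest apart, at 0.924, was that of WT tumour 3. The array medians of the KO sides differed by -0.04 (two-sided exact permutation p = 0.381 over 84 splits, of which the smallest possible p is 0.0119). The probe set of Prdm11, whose position relative to the deletion is not given, read 5.23 ± 0.28 (SD, n = 6) in Enpep-high and 5.15 ± 0.11 (SD, n = 3) in Enpep-low tumours (exact permutation p = 0.655). It does not check the genotype. The B lineage was visible in all 9 tumours. The receptor chain gene Cd79b lay between 8.59 and 10.24, Cd79a between 5.81 and 6.88 and the B lineage factor Ebf1 between 6.70 and 8.45. Markers of other cells were also present. The T cell list averaged 6.78 in Enpep-low KO tumour 6 and 5.76 in Enpep-low KO tumour 5, against 5.26 to 5.498 in the 6 Enpep-high tumours and 5.31 in KO tumour 3. The results below are therefore also given without KO tumour 6 where they rest on it.

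Enpep itself was read at 7.63, 6.25, 6.13, 6.53, 7.30 and 6.54 in KO tumours 1, 2, 4, 7, 8 and 9, and at 4.18, 4.76 and 4.78 in KO tumours 3, 5 and 6. The members nearest the limit were KO tumours 4 and 2 above it and KO tumours 6 and 5 below it, so that no KO tumour lay between 4.78 and 6.13. The 9 WT tumours ran from 4.29 to 4.95 with a median of 4.50, which overlaps the range of the Enpep-low tumours and is below the median probe set of every array. The means were 6.73 ± 0.60 (SD, n = 6) for Enpep-high, 4.57 ± 0.34 (SD, n = 3) for Enpep-low and 4.53 ± 0.21 (SD, n = 9) for WT tumours.

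Of 19937 other genes, 1 passed the adjusted threshold of limma, and it was lower in Enpep-high tumours. That gene was Cmah, which encodes the CMP-N-acetylneuraminic acid hydroxylase that makes the sialic acid Neu5Gc. The genes lower at an adjusted p below 0.05 were 0.00502% of those tested, and the genes higher were 0 (0.0%). At an unadjusted p below 0.05, 422 genes were higher (2.12%) and 787 lower (3.95%). Groups that did not overlap were found for 200 higher genes (1.0%) and 329 lower genes (1.65%). After quantile normalization the counts at an unadjusted p were 629 higher and 703 lower, and after median centring 582 and 608, so that the excess of lower over higher genes depended on the scaling. The number of tumours sets the limit of this comparison. With 3 Enpep-low tumours, most differences described below did not pass the adjusted threshold, and their values are given without a claim of change.

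Cmah was read at 5.43, 5.70, 5.07, 6.31, 5.21 and 5.25 in Enpep-high KO tumours 1, 2, 4, 7, 8 and 9, and at 7.35, 7.94 and 7.83 in Enpep-low KO tumours 3, 5 and 6. All 6 Enpep-high tumours lay below all 3 Enpep-low tumours. Cmah fell by 2.21 on the log2 scale (SE 0.25, limma adjusted p = 0.0447), which is 4.62-fold lower. WT tumours ran from 5.21 to 7.65 with a median of 7.12, and the lowest of them was WT tumour 1. The call was narrow. It was lost without KO tumour 1 (adjusted p = 0.214), 2 (0.142), 3 (0.053), 4 (0.117), 5 (0.153), 6 (0.0774), 8 (0.147) or 9 (0.0831), with differences from -2.39 to -2.09. Without KO tumour 7, whose Cmah was the highest of the Enpep-high side, it held with an adjusted p of 0.00181 and a difference of -2.37.

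The promoters of Enpep, which chose the sides, and of Cmah, which passed the adjusted threshold, are shown. Also shown are those of the surrogate light chain genes Vpreb1 and Igll1, which did not pass it. The last 2 were chosen for printing after their values were seen. Each is the 250 bases before the annotated start, on the sense strand, from RefSeq on GRCm38.p6. Enpep lies at chr3:129332750-129332999 on the minus strand, Cmah at chr13:24327154-24327403 on the plus strand (the first of 2 annotated starts), Vpreb1 at chr16:16869256-16869505 and Igll1 at chr16:16863986-16864235, both on the minus strand. Capitals mark matches, on either strand, to the EBF1 motif (TCCC, any 2 bases, GGGA), the E-box CAGCTG or the PU.1 core GAGGAA, factors that act in early B cells.
Enpep: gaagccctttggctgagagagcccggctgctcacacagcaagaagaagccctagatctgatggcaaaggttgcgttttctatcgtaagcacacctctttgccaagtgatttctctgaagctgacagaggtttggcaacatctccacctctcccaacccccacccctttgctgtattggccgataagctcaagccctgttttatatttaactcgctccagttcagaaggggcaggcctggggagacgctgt
Cmah: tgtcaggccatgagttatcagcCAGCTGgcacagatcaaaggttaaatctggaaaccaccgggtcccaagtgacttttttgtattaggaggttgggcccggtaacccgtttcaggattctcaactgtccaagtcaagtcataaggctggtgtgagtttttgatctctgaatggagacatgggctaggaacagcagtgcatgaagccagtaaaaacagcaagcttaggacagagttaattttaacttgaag
Vpreb1: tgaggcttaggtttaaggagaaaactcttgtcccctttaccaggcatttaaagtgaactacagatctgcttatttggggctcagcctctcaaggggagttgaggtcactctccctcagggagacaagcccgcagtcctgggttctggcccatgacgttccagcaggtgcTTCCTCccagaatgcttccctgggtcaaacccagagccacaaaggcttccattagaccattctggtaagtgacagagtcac
Igll1: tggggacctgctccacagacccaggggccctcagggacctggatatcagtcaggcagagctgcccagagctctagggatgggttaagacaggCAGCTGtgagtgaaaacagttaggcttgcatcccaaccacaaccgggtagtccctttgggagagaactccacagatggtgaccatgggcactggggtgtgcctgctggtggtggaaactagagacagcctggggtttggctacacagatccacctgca
The Enpep window held 0 matches to these motifs. Cmah and Igll1 each held 1 E-box, and Vpreb1 held 1 PU.1 core, read as TTCCTC on this strand. The windows of Kcnk1 and Lxn, the first genes named on the higher side below, held 2 PU.1 cores each, and that of Lxn also 1 E-box. The Kcnk1 window lies inside the span that the RefSeq gene table gives for the gene, not at its start. Among 32851 promoter windows of this length, 0.779% held the EBF1 motif, 13% the E-box and 23.3% the PU.1 core. A match is a description of these letters and does not show binding.

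**Figure D1:**
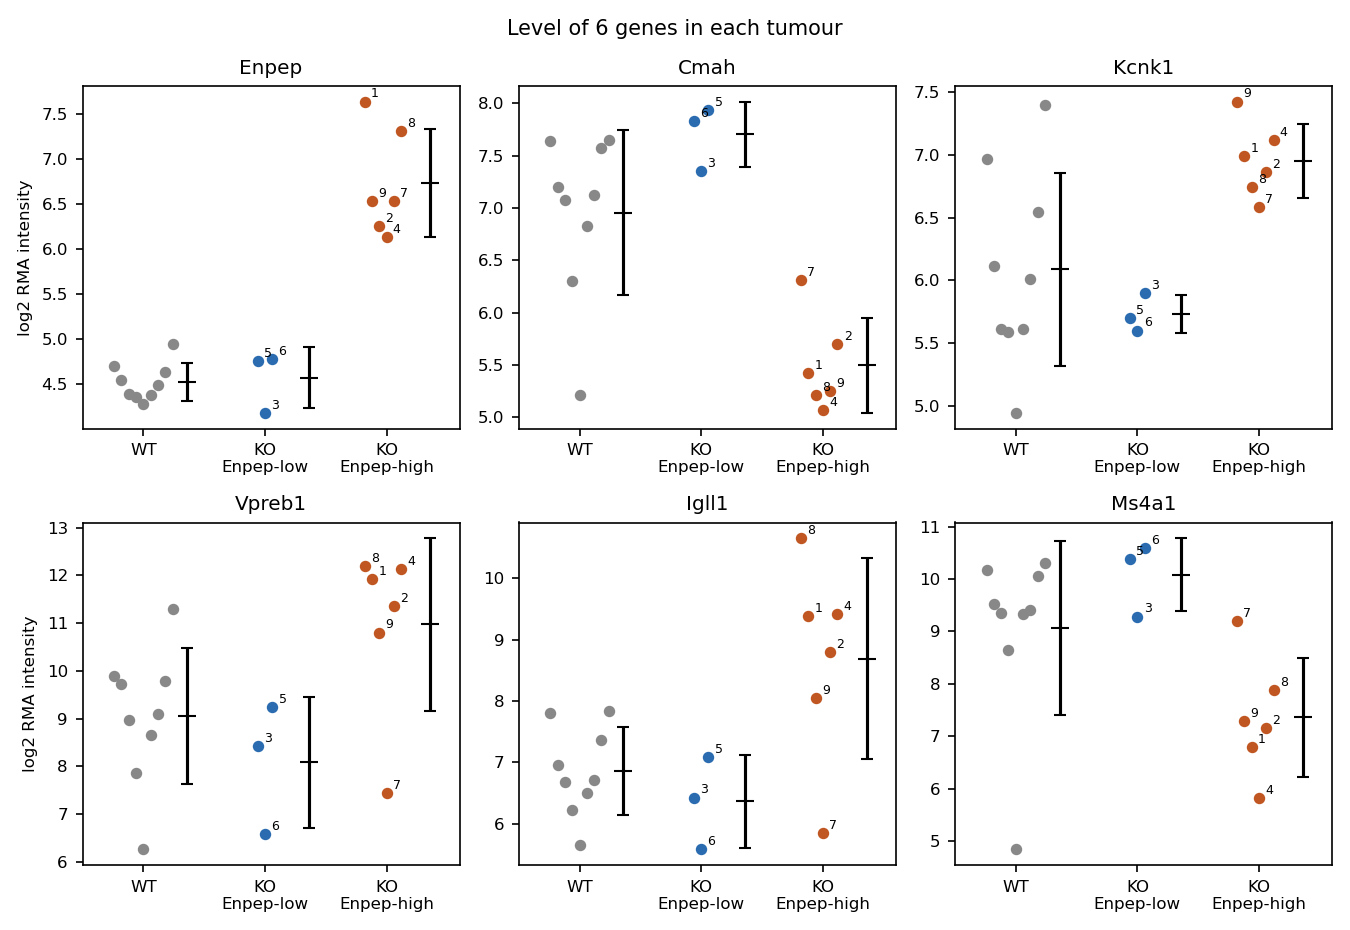
Log2 RMA intensity (vertical axes) of 6 genes in each tumour: grey, 9 WT; blue, 3 Enpep-low KO; orange, 6 Enpep-high KO, with KO tumour numbers beside the points and mean ± SD to the right. Enpep chose the sides. Cmah and Ms4a1 do not overlap between the KO sides, while in Vpreb1 and Igll1 KO tumour 7 lies among the Enpep-low tumours.

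The surrogate light chain genes had some of the largest differences in the higher direction. Vpreb1, which encodes the VpreB part, was read at 11.93, 11.35, 12.13, 7.45, 12.19 and 10.80 in KO tumours 1, 2, 4, 7, 8 and 9. In the Enpep-low KO tumours 3, 5 and 6 it was read at 8.43, 9.24 and 6.58. Of the 6 Enpep-high tumours, 5 lay above all Enpep-low tumours, and KO tumour 7 lay among them. The difference was 2.89 (SE 0.94, unadjusted p = 0.0103, adjusted p = 0.71). Igll1, which encodes λ5, was read at 9.39, 8.80, 9.42, 5.85, 10.66 and 8.04 on the high side and at 6.43, 7.08 and 5.58 on the low side. Again KO tumour 7 was the exception, and the other 5 lay above every WT tumour, whose highest value was 7.84. The difference in Igll1 was 2.33 (SE 0.80, unadjusted p = 0.0141, adjusted p = 0.734). Without KO tumour 7 the differences were 3.60 for Vpreb1 (adjusted p = 0.0683) and 2.90 for Igll1 (adjusted p = 0.132). Without KO tumour 6 they were 2.14 and 1.94, with unadjusted p of 0.0619 and 0.0621.

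In WT tumours a high Vpreb1 also occurred beside a low Enpep. Vpreb1 in WT ran from 6.26 to 11.30, and WT tumour 1, which read 11.30, had an Enpep level of 4.95, below the limit. The other members of the list of surrogate light chain and pre-B receptor genes gave no common direction. Vpreb2 had a difference of 0.46 and Vpreb3, a chaperone-like relative, 0.62, while the surface enzyme Bst1 (BP-3) had 1.14 with overlapping sides. The kinase Blk had -1.32, the receptor chain Cd79b -0.71 and the kinase Syk -0.57. Over the 11 members, 2 were higher and 3 lower at an unadjusted p below 0.05, against 2.12% and 3.95% of all genes. The list had a median difference of 0.44 against 0.009 over all genes. The median was 0.19 without KO tumour 6, 0.0619 with the T cell covariate and -0.35 at an Enpep limit of 6.5, so that its sign depended on the limit.

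The recombination genes of the pro-B stage, Rag1, Rag2 and Dntt, varied widely among the Enpep-high tumours. Rag1, the recombinase subunit that cuts immunoglobulin gene segments, was read at 8.90, 6.76, 8.84, 5.16, 4.88 and 4.25 in KO tumours 1, 2, 4, 7, 8 and 9, and at 5.22, 5.28 and 6.32 in KO tumours 3, 5 and 6. Thus 3 of the Enpep-high tumours were above all Enpep-low tumours and the other 3 below all of them. Its partner Rag2 was high in KO tumours 1 (7.51), 4 (6.18) and 2 (5.501) and lay between 3.10 and 3.85 in the remaining 6 KO tumours. Dntt, the terminal transferase that adds bases at the joints, reached 9.54 in KO tumour 4, 6.82 in KO tumour 1 and 6.40 in KO tumour 8, against 3.64 to 4.81 elsewhere among KO tumours. The Enpep-high tumours therefore did not form a uniform group on these genes. Il7r, the receptor for the pre-B growth factor IL-7, was read at 6.64, 6.92, 5.43, 4.71, 4.67 and 7.62 on the high side and 5.63, 6.39 and 7.32 on the low side, a difference of -0.45 (SE 0.64).

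Over the 26 measured genes of the pro-B and pre-B list, 2 were higher and 0 lower at an unadjusted limma p below 0.05, and 0 passed the adjusted threshold, where 2.12% of all genes were higher at the unadjusted level. Their median difference was 0.26. Without KO tumour 6 it was 0.15 with 1 member higher, without KO tumour 7 it was 0.21 with 5 higher, and at an Enpep limit of 6.5 it was -0.0999. Of all 19937 genes, 224 (1.12%) were higher at an unadjusted p below 0.05 without KO tumour 6 and 450 without KO tumour 7. With all tumours the 2 were Xrcc6 and Sox4. Xrcc6, the Ku70 subunit that holds broken DNA ends, was read at 8.63, 8.90, 9.02, 7.92, 8.59 and 9.17 against 7.67, 7.65 and 7.20, with no overlap. Its difference was 1.20 (SE 0.25, unadjusted p = 0.000443, adjusted p = 0.512). Its partner Xrcc5 had a difference of 0.18, and the other end-joining genes Lig4, Xrcc4, Nhej1, Prkdc and Trp53bp1 had differences between -0.23 and 0.25. Sox4, a transcription factor needed by B progenitors, had 0.46 (SE 0.20, unadjusted p = 0.0406).

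Receptors and antigens of mature B cells lay lower in Enpep-high tumours. All 19 measured members of the mature B cell list had a negative difference, where negative differences made up 47.8% of all genes. Of the 19, 11 had an unadjusted limma p below 0.05, against 3.95% of all genes lower at that level. The sides did not overlap for 5 members, against 1.65% of all genes in that direction. The median difference was -0.67, and 0 members passed the adjusted threshold. Ms4a1, which encodes CD20, was read at 6.79, 7.16, 5.82, 9.20, 7.88 and 7.30 on the high side and at 9.28, 10.38 and 10.59 on the low side. KO tumour 7 came close to the lowest Enpep-low tumour, and the others lay further below. The difference was -2.72 (SE 0.58, unadjusted p = 0.000576, adjusted p = 0.512). In WT tumours Ms4a1 ran from 4.84 to 10.30 with a median of 9.40. The WT means over the whole list ran from 5.73 to 7.23 with a median of 6.51, against 5.91 to 6.52 in Enpep-high tumours. WT tumour 1 was the lowest in both, below every Enpep-high tumour, although its Enpep level of 4.95 was below the limit.

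Bank1, a scaffold that links the B cell receptor to calcium release, was read at 7.48, 7.56, 7.13, 8.69, 6.53 and 7.24 against 9.14, 9.86 and 9.92. Its difference was -2.20 (SE 0.37, unadjusted p = 8.75e-05, adjusted p = 0.249), and without KO tumour 7 it was -2.45 and passed the adjusted threshold (adjusted p = 0.0127). Gpr183, the oxysterol receptor that positions B cells in the follicle, had -1.42. S1pr1, which guides exit from lymphoid tissue, had -1.19. Klf2, a factor of quiescent naive lymphocytes, was read between 6.61 and 7.28 on the high side and between 7.51 and 7.62 on the low side, a difference of -0.62 (SE 0.16). Cr2, the complement receptor CD21, did not divide the sides in the same way: it was 9.64 in KO tumour 6 and 6.54 in KO tumour 5, but 4.57 in KO tumour 3, within the 4.41 to 5.72 of the Enpep-high tumours. The survival receptor gene Tnfrsf13c (BAFF receptor) had a difference of -0.04.

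The median of the mature B cell list was -0.42 without KO tumour 6 and -0.72 without KO tumour 7. With 8 members at an unadjusted p below 0.05 in the first case, the share of all genes lower at that level was 2.01% (higher, 1.12%). With the T cell list mean as a covariate the median was -0.37 and 5 members had an unadjusted p below 0.05, where 2.05% of all genes were lower and 1.09% higher. In these spleens, fewer cells of a type and less RNA per cell cannot be told apart, here or for any list.

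Genes of B cell receptor signalling followed the same direction. The lists share genes: Bank1 is on this list and the mature B cell list, and Cd22 on this list and the pan-B list. Their counts are therefore not independent. All 21 measured members had a negative difference, where negative differences made up 47.8% of all genes. Of the 21, 10 had an unadjusted p below 0.05 and 6 had no overlap, against 3.95% and 1.65% of all genes. The median was -0.39 with all tumours and -0.29 without KO tumour 6. Without that tumour or with the T cell covariate, 6 members had an unadjusted p below 0.05. The shares of all genes lower at that level were then 2.01% and 2.05%. Cd22, an inhibitory lectin of the receptor that binds sialic acids, was read at 6.84, 6.88, 6.51, 6.86, 6.22 and 6.53 on the high side and at 7.49, 7.36 and 7.86 on the low side. Its sides did not overlap, with a difference of -0.93 (SE 0.18, unadjusted p = 0.000256, adjusted p = 0.512). The Src family kinase Blk was read at 6.02, 6.12, 5.37, 5.82, 5.27 and 4.98 against 6.70, 6.68 and 7.36. The NF-κB adaptor Malt1 had -1.10, the phosphatase Ptpn6 (SHP-1) -0.78 and the adaptor Grb2 -0.41, each with no overlap. In contrast the kinase Btk had -0.08 and the lipid phosphatase Inpp5d -0.03. On the pan-B list, 14 of 14 members had a negative difference and 6 an unadjusted p below 0.05 (4 without KO tumour 6), but Ebf1 had -0.01 (SE 0.40), and Pax5, the factor that holds B cell identity, had -0.51 with overlapping sides.

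MHC class II genes had the most negative median of the 36 lists, at -1.08, with 8 of 11 measured members lower at an unadjusted p below 0.05, where 3.95% of all genes were lower. Of these, 0 passed the adjusted threshold of limma. Cd74, the invariant chain that escorts class II molecules, was read at 5.81, 7.20, 4.95, 7.36, 6.13 and 5.96 on the high side and at 7.97, 7.59 and 8.73 on the low side. Its difference was -1.86 (SE 0.47, unadjusted p = 0.00203, adjusted p = 0.512). KO tumours 2 and 7 were the nearest to the low side. H2-Aa, a class II chain, ran from 6.54 to 9.02 on the high side and from 8.88 to 10.56 on the low side. The thiol reductase Ifi30 had -1.46, H2-Eb1 -1.59, the peptide exchanger H2-DMa -1.09 and the class II transactivator Ciita -0.45. H2-Ea had 0.13, but its levels of 3.76 to 4.37 in all KO tumours were below the median probe set of every array. The list median was -0.76 with 6 members at that level without KO tumour 6, and -0.60 with 2 members with the T cell covariate. The shares of all genes lower at that level were then 2.01% and 2.05%. MHC class I genes had a median of -0.15, and 0 of 13 had an unadjusted p below 0.05.

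**Figure D2:**
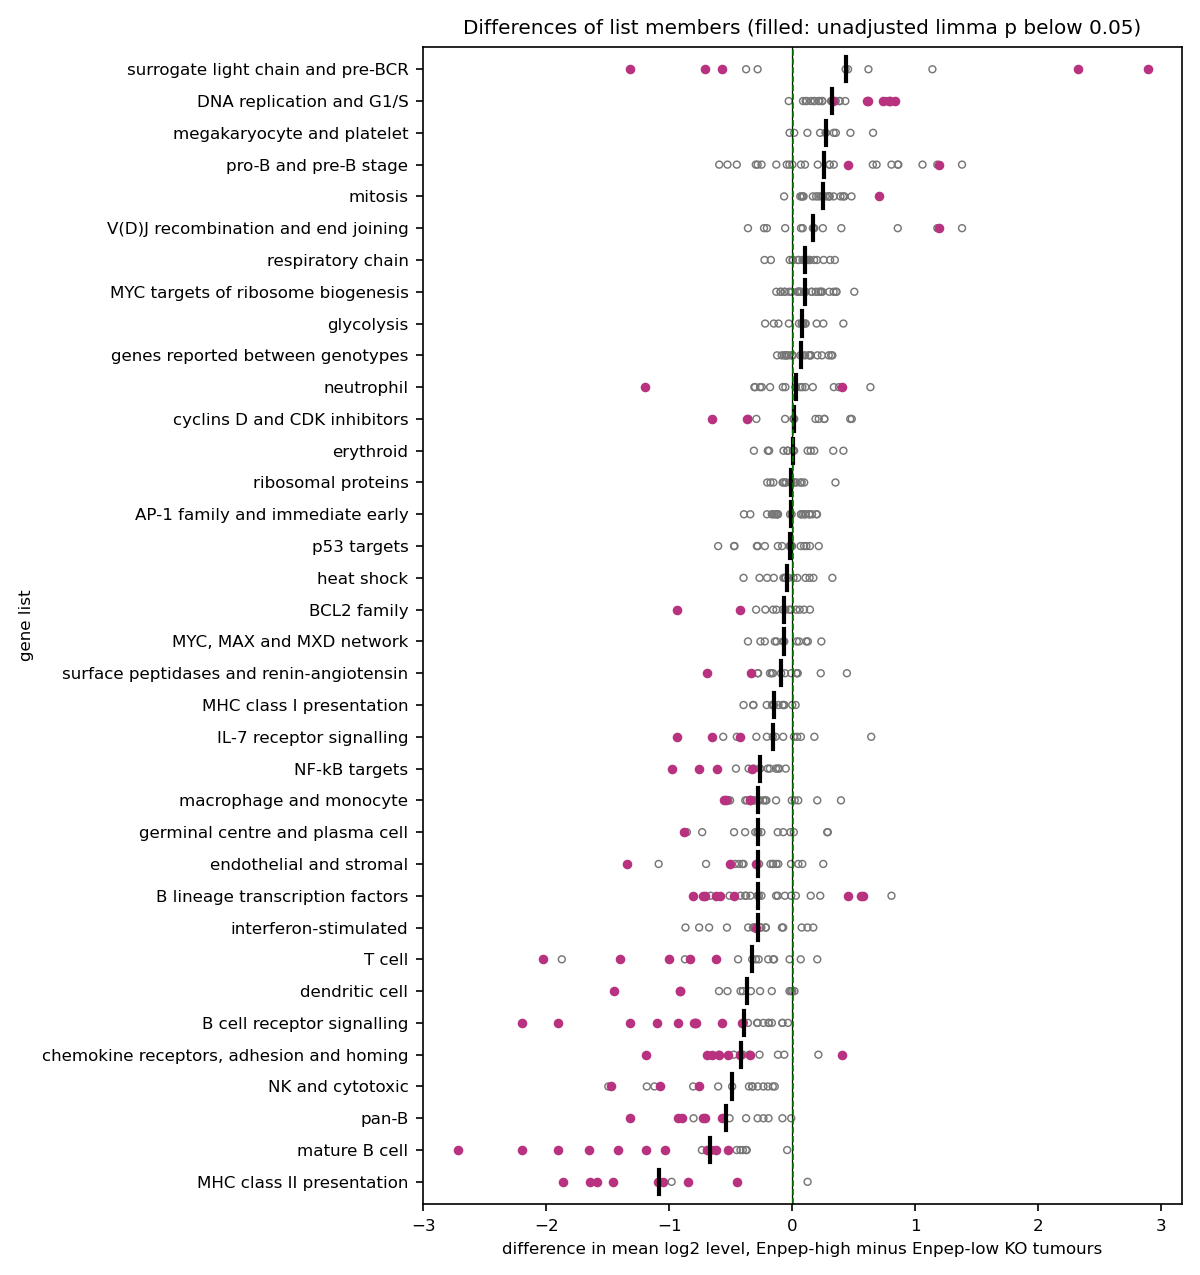
Difference in mean log2 level between Enpep-high and Enpep-low KO tumours (horizontal axis) for every measured member of 36 gene lists. Open and filled circles are members with an unadjusted limma p at or above and below 0.05, black bars are list medians, and the dashed line is the median of all genes at 0.009. MHC class II, mature B cell and pan-B genes lie furthest to the left, and the surrogate light chain list spreads from -1.32 to 2.89.

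**Figure D3:**
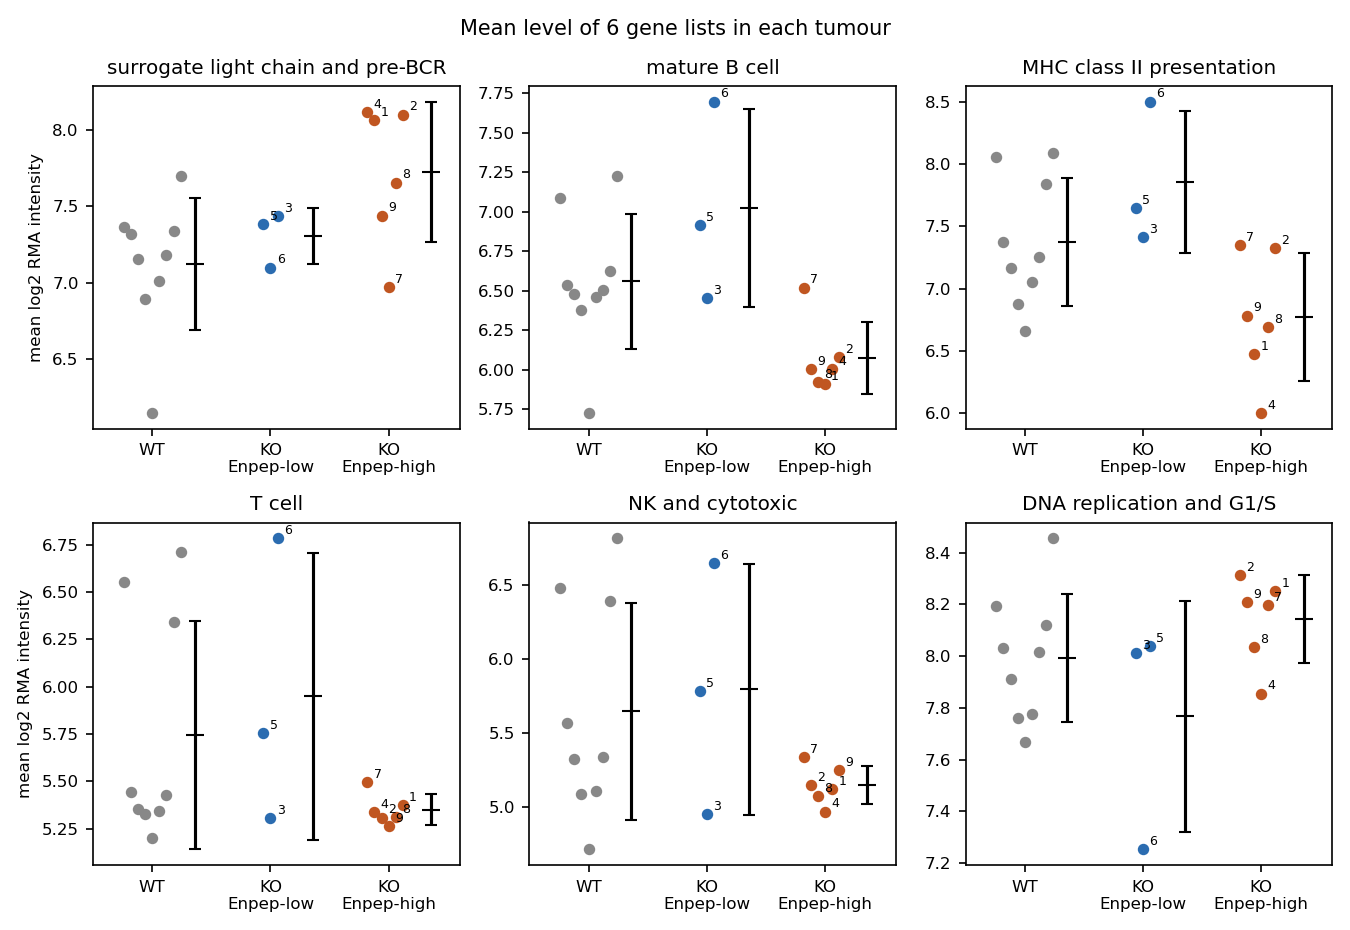
Mean log2 RMA intensity over the measured members of 6 lists (vertical axes) in each tumour: grey, 9 WT; blue, 3 Enpep-low KO; orange, 6 Enpep-high KO, with KO tumour numbers and mean ± SD. KO tumour 6 is the highest KO tumour on the mature B cell, MHC class II, T cell and NK lists and the lowest on DNA replication, and KO tumour 7 is the lowest on the surrogate light chain list.

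Genes of immune cells that can accompany the tumour differed in level between the tumours of the low side. The T cell list had a median difference of -0.32, with 5 of 17 members lower at an unadjusted p below 0.05. Over all genes, 3.95% were lower at that level. Without KO tumour 6 the list median was -0.18 and 1 of 17 was lower at that level, where 2.01% of all genes were. Cd3g, a chain of the T cell receptor complex, was 9.64 in KO tumour 6, 7.49 in KO tumour 5 and 5.70 in KO tumour 3, against 4.69 to 6.40 on the high side. The NK and cytotoxic list had a median of -0.49, or -0.14 without KO tumour 6. Its mean level was 6.65 in KO tumour 6, 5.78 in KO tumour 5 and 4.95 in KO tumour 3, against 4.97 to 5.34. The T and NK list means of KO tumour 3 were thus no higher than the upper values of the Enpep-high tumours. KO tumour 3 read 7.35 for Cmah, 9.28 for Ms4a1 and 7.97 for Cd74, above all Enpep-high tumours. These 3 genes were named by a small p in this same comparison, so such readings follow from their choice. Over the whole mature B cell list, KO tumour 3 averaged 6.46, below the 6.52 of Enpep-high KO tumour 7. The part of accompanying cells in these differences was not tested. The defining markers overlapped. Cd3e of T cells ran from 5.08 to 5.86 on the high side and 5.57 to 6.37 on the low side, Ncr1 of NK cells from 3.50 to 4.64 and 4.39 to 5.90, and C1qa of macrophages from 6.17 to 6.95 and 6.16 to 6.55.

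Dendritic cell genes had a median of -0.37, with 3 of 14 members lower at an unadjusted p below 0.05, against 3.95% of all genes. Itgax, which encodes CD11c, was read at 4.32, 4.37, 4.33, 4.50, 4.19 and 4.28 against 4.91, 5.01 and 5.83, a difference of -0.92 (SE 0.19, adjusted p = 0.512). Clec9a, a receptor of cross-presenting dendritic cells, had -1.45 with no overlap. Without KO tumour 6 the list median was -0.054. With the T cell covariate the medians of the dendritic, macrophage, NF-κB, interferon and germinal centre lists were 0.0391, 0.0177, 0.0305, 0.0822 and 0.056. The part of dendritic cells in the class II and mature B cell differences was not tested beyond the values with a T cell covariate and without KO tumour 6. The erythroid, neutrophil and macrophage lists had medians of 0.01, 0.03 and -0.27, and the megakaryocyte list had 0.27 with 0 of 10 members at an unadjusted p below 0.05. These medians were -0.34 (12 of 13 erythroid genes negative), -0.0725, -0.11 and 0.33 without KO tumour 6. Of all 19937 genes, 9856 were negative without that tumour. In that setting 3 of the 10 megakaryocyte genes were higher at that level, against 1.12% of all genes. The stromal list had -0.28 (-0.13 without KO tumour 6), and its follicle chemokine Ccl19 reached 9.58 in KO tumour 6.

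Genes of DNA replication lay on the higher side, but that rested on KO tumour 6. Of 26 members, 25 had a positive difference, 7 had an unadjusted p below 0.05 and the median was 0.33. Positive differences made up 52.2% of all genes, and 2.12% of all genes were higher at an unadjusted p below 0.05. Rrm2, a subunit of the ribonucleotide reductase that supplies DNA precursors, was read at 10.54, 10.52, 10.15, 10.38, 10.35 and 10.29 on the high side and at 9.77, 10.15 and 9.35 on the low side. Its difference was 0.62 (SE 0.17, unadjusted p = 0.00392, adjusted p = 0.592). Tyms, the thymidylate synthase, had 0.61, and the primase subunit Prim1 had 0.84. Averaged over the list, KO tumour 6 was at 7.25, against 7.86 to 8.31 in the other 8 KO tumours. Without it the median was 0.03, with 14 positive and 12 negative members. The mitosis list had a median of 0.25, and -0.11 without KO tumour 6. With the T cell covariate the replication and mitosis medians were -0.0867 and -0.26. Targets of Myc in ribosome biogenesis had 0.11 with 22 of 29 differences positive, and -0.11 with 20 of 29 negative without KO tumour 6. Myc itself was read between 9.96 and 10.46 on the high side and at 10.91, 10.30 and 9.55 on the low side, with a difference of -0.07 (SE 0.24).

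Other regulators of the lineage divided into both directions. Among 26 measured B lineage transcription factors, 3 were higher and 6 lower at an unadjusted p below 0.05, with a median of -0.28. Over all genes, 2.12% were higher and 3.95% lower at that level. The list counts were 1 and 3 and the median -0.13 without KO tumour 6, where 1.12% of all genes were higher and 2.01% lower. With the T cell covariate the list median was -0.0896. With all tumours, those higher were Myb (0.58), a factor of progenitors, Id3 (0.56), an inhibitor of E proteins, and Sox4. Those lower with all tumours were Klf2, Mef2c (-0.71), Foxp1 (-0.81), Ikzf3 (-0.73), which encodes Aiolos, Spib (-0.59) and Bcl11a (-0.47). Of these, Klf2 and Mef2c did not overlap between the sides. In survival and growth control, Bcl2 was read at 6.94, 6.22, 6.58, 6.48, 5.78 and 6.93 against 6.99, 7.18 and 8.11, a difference of -0.94 (SE 0.29, unadjusted p = 0.00766, adjusted p = 0.673). The sides did not overlap, but KO tumours 1 and 9 lay close to KO tumour 3. Mcl1 had -0.43 and the cyclin Ccnd2 -0.65. The NF-κB list had 15 of 15 negative differences with a median of -0.26, among them the inhibitor of apoptosis Birc3 (-0.98) and Cd40 (-0.61). Negative differences made up 47.8% of all genes. Without KO tumour 6 the NF-κB median was -0.07 with 10 of 15 differences negative, where 9856 of 19937 genes were negative. The IL-7 receptor list had a median of -0.16 with 3 of 15 members lower at an unadjusted p below 0.05 (1 without KO tumour 6). The interferon-stimulated list had -0.28 with 1 of 18 lower at that level. The germinal centre and plasma cell list had -0.27 with 1 of 15, the receptor gene Cd27. Over all genes 3.95% were lower (2.01% without KO tumour 6), so 1 member of a list of this size is near that share. The interferon and germinal centre medians were -0.0579 and -0.0848 without KO tumour 6, with 0 members of either list at that level. The p53 target, ribosomal protein, heat shock, glycolysis, respiratory chain and AP-1 lists had medians between -0.04 and 0.11, or -0.0495 and 0.03 without KO tumour 6, and 0 members at an unadjusted p below 0.05 in either case.

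Homing and adhesion genes had a median of -0.42, with 7 of 18 members lower and 1 higher at an unadjusted p below 0.05, where 3.95% of all genes were lower and 2.12% higher. The median was -0.28, with 3 lower and 0 higher, without KO tumour 6, where 2.01% of all genes were lower and 1.12% higher. With all tumours, the one that ran the other way was Cxcr4, the receptor that holds B progenitors in bone marrow. It was read at 9.97, 9.85, 9.56, 9.50, 9.69 and 9.95 on the high side and at 9.35, 9.62 and 9.08 on the low side, with a difference of 0.40 (SE 0.16, unadjusted p = 0.0279, adjusted p = 0.8). Ccr7, the receptor for the T zone chemokines, had -0.52 and the integrin chain Itgb1 -0.43, each with no overlap.

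Other surface peptidases differed in both directions. Over 15 measured genes of the peptidase and renin-angiotensin list the median was -0.09, with 0 higher and 2 lower at an unadjusted p below 0.05, and 0 of either without KO tumour 6. Over all genes 2.12% were higher and 3.95% lower at that level, or 1.12% and 2.01% without KO tumour 6. On a list of this size, counts of 0 higher are near those shares. Anpep, the aminopeptidase N known as CD13, was read at 4.34, 3.72, 4.70, 4.64, 4.15 and 4.44 against 4.68, 4.63 and 5.76, a difference of -0.69 (SE 0.27, unadjusted p = 0.0273, adjusted p = 0.8). The cytosolic aminopeptidase Npepps had -0.33. Mme, the neprilysin CD10, had -0.28 and Dpp4 (CD26) 0.45, both with overlap. The angiotensin converting enzyme gene Ace had -0.18 and the angiotensin receptor gene Agtr1a -0.17.

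The genes first in order of unadjusted p on the higher side were mostly outside the lists. Kcnk1, a leak potassium channel, came first and was read at 6.99, 6.86, 7.11, 6.58, 6.74 and 7.42 against 5.90, 5.70 and 5.60. The sides did not overlap, and the difference was 1.22 (SE 0.18, unadjusted p = 2.33e-05, adjusted p = 0.112). WT tumours spanned both sides, from 4.95 to 7.40. Lxn, which encodes the carboxypeptidase inhibitor latexin, was read at 8.18, 7.84, 6.90, 6.79, 7.58 and 7.49 against 5.28, 5.90 and 6.11, a difference of 1.70 (SE 0.30, adjusted p = 0.315). WT tumours reached 7.15, and 4 of the 6 Enpep-high tumours lay above all of them. Mei4, a gene of meiotic recombination, had 1.62, the histidine catabolism gene Amdhd1 1.13, the glucosyltransferase gene Poglut2 1.02 and the fatty acid elongase Elovl6 0.93. Cmtm7, a membrane protein of the MARVEL family, had 0.69. Xrcc6, described above, and Plaat1, Nmral1, Zik1, F2rl3, Kcnf1, Dleu7 and Mnat1, with differences between 0.56 and 1.20, completed the first 15.

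On the lower side, Cmah was followed by Lifr, the receptor for leukaemia inhibitory factor. It was read at 5.69, 5.74, 5.89, 5.88, 5.21 and 5.60 against 6.60, 6.87 and 6.79, with no overlap and a difference of -1.09 (SE 0.16, adjusted p = 0.112). Arhgap42, a GTPase-activating protein, was read between 3.34 and 3.89 on the high side and at 4.67, 4.57 and 4.87 on the low side, a difference of -0.99 (SE 0.15, adjusted p = 0.112). Ppp3ca, the catalytic subunit of calcineurin, had -0.94, the junction protein gene Afdn -1.16 and the receptor phosphatase gene Ptprj (CD148) -1.08. Slc44a1, a choline transporter, had -1.18. Bank1, Cd22, Blk and Itgax, described above, and Sympk, Txndc16, Pld4 and Pde7a, with differences between -1.06 and -0.72 for the last 4, completed the first 15. The direction of all 30 genes was the same in every alternative setting that fitted them, 22 or 23 per gene. Being first by p makes this a property of how they were chosen, and the settings that gave the same sides could not differ.

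**Figure D4:**
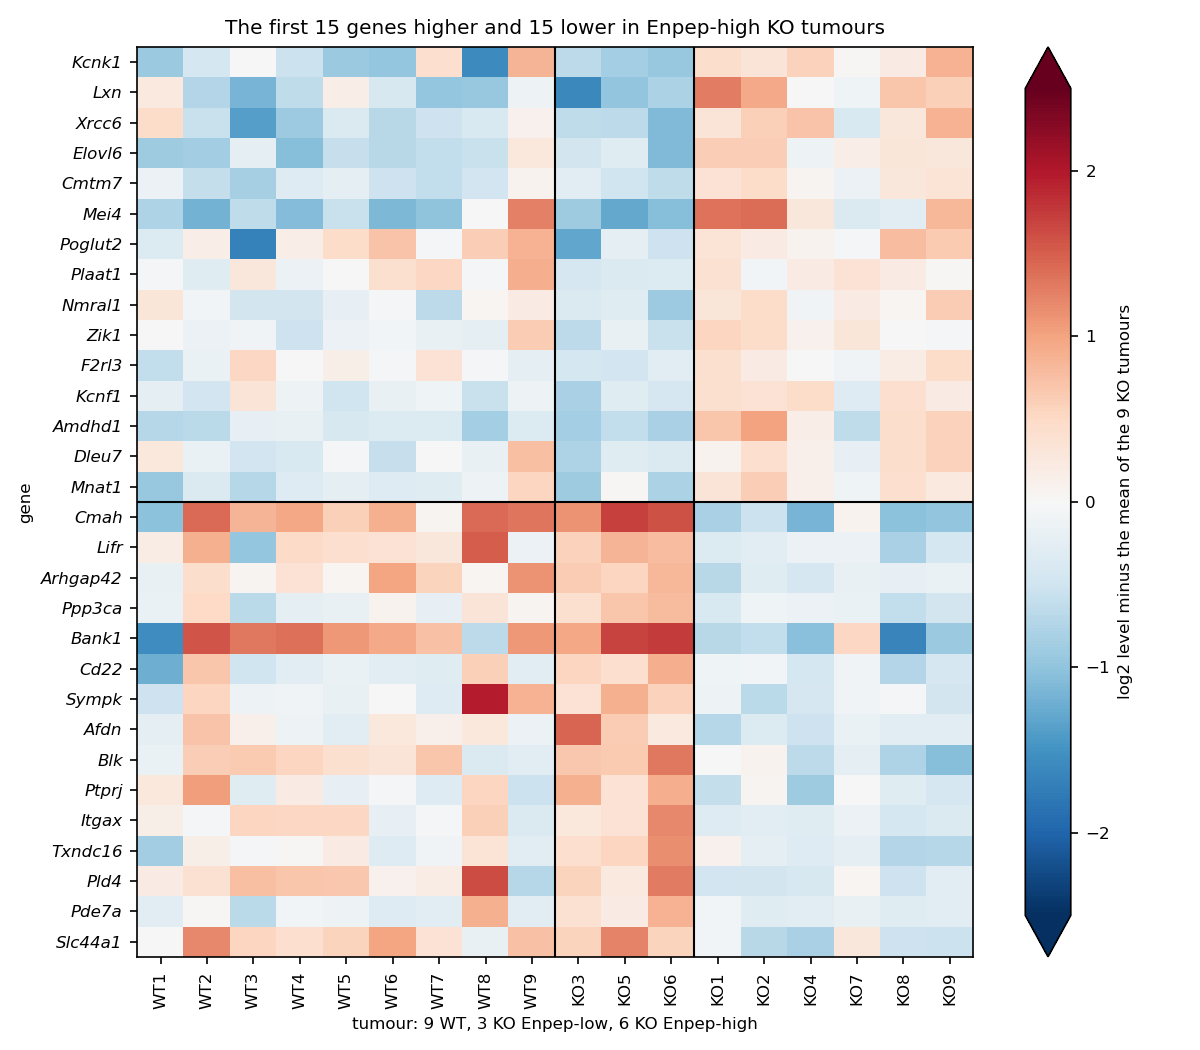
Log2 level minus the mean of the 9 KO tumours (colour) for the first 15 genes higher and the first 15 lower in Enpep-high tumours (rows), over 9 WT, 3 Enpep-low KO and 6 Enpep-high KO tumours (columns). The genes were chosen by this comparison, so the contrast between the KO blocks is how they were selected; the WT columns, which played no part in the choice, show levels on both sides.

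The WT tumours were close to the Enpep-low side in Enpep. For other genes, the shares that follow cannot decide which KO side the WT tumours resemble. Over all 19937 genes, the WT mean was nearer the Enpep-low mean for 42.9%. The share was 46.0% among the 422 genes higher at an unadjusted p below 0.05 and 37.4% among the 787 lower genes. Among genes whose sides did not overlap, it was 30.5% for the 200 higher and 38.3% for the 329 lower genes. The Enpep-low mean comes from fewer tumours than the Enpep-high mean and is less precise. A less precise mean tends to lie further from the WT mean, which by itself lowers these shares. The 22 genes listed because earlier results of these data had them first between Prdm11 genotypes had a median difference of 0.07 between the KO sides, and 0 of them had an unadjusted p below 0.05. Among them the complement regulator Cd59a had 0.21 (SE 0.42), with all but 1 of the 9 WT tumours above every Enpep-high tumour, and the cochaperone St13 had 0.33 (SE 0.19).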

How the data were processed

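Gene expression was measured in 18 splenic tumours, 1 array each. The authors deposited linear intensities made with RMA, according to the submitters' processing notes, with no version given. They ran from 1.63 to 14996. The design had assumed log2 values, so the intensities were transformed to log2 with no pseudocount. At most 0.045% of values were equal between 2 arrays. Of 35556 probe sets, 21789 had 1 symbol in the platform annotation, 1621 several and 12146 none; 21698 were matched by gene ID to RefSeq on GRCm38.p6, which changed 0 symbols. Each of 19938 genes was read from its brightest probe set by mean over 18 arrays, and 999 had more than 1. No filter on dim genes was applied. The number of arrays limits the precision.

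The 9 KO tumours were divided at an Enpep log2 level of 6.0, and 19937 genes without Enpep were compared with limma 3.58.1 (lmFit and eBayes) in R 4.3.3, with no covariate and Benjamini-Hochberg adjustment; an adjusted p below 0.05 passed. Prdm11 and the array median had a two-sided exact permutation test. The fit was tested on simulated data. P-values measure the spread between tumours of separate mice. Other steps used Python 3.11.15 with scipy 1.17.1, pandas 2.3.3, matplotlib 3.10.9 and numpy 2.4.6. Lists, described by counts and medians with no test, and the members were chosen with earlier results of these data known. Named were Enpep, the first 15 genes in each direction (by size among those past the threshold, then by smallest p, passing over unannotated clones), the first 2 members of each list by p, and Prdm11, Igll1, Vpreb1, Rag1, Il7r, Cd59a and Myc; any other gene was chosen after its values were seen. Alternatives covered scaling, probe sets, dim genes, a 3-group fit, the variance prior, array weights, T cell and erythroid covariates, the Enpep limit and left-out tumours. No batch was given in the sources used here.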

Additional observations from a re-analysis of the deposited data

Results flagged for a closer look

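Among 74 sets of 6 Enpep-high values examined (named genes and list means), 6 held a tumour far from the other 5. The rule flags about 1 in 20 sets of independent values by chance. These sets share tumours and genes, so that rate cannot be set against this count. KO tumour 7 was that tumour in 4 of them. Its Vpreb1 was 7.45, against 10.80 for the nearest other Enpep-high tumour, and its Kcnf1 was 4.34, against 4.87. Its mean over the mature B cell list was 6.52, against 6.08 for the next, and over the p53 target list 6.05, against 5.95. KO tumour 2 had a mean of 6.77 over the IL-7 receptor list, against 6.64 for the next. KO tumour 4 had the lowest glycolysis list mean, 7.34, against 7.54.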

How the results depend on the processing

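The single adjusted call became 0 with limma after quantile normalization, median centring, a T cell or an erythroid covariate, an Enpep limit of 6.5 or a continuous Enpep level, where the genes higher and lower at an unadjusted p below 0.05 were 629 and 703, 582 and 608, 217 and 409, 447 and 835, 461 and 441, and 542 and 682. It became 2 with array weights and 2 over all probe sets, and 0 to 3 with 1 KO tumour left out, where the unadjusted counts ran from 224 to 910 higher and from 400 to 976 lower. Without dim genes 211 were higher. Cmah passed in 8 of 23 settings; its adjusted p was 0.0542 and 0.0851 under the scalings, 0.296 in the 3-group fit, 0.197 and 0.0679 with the covariates, 0.883 at the limit of 6.5 (difference -1.23) and 0.346 with continuous Enpep. Limits of 5.5 or above the highest WT tumour gave the same sides, so Cmah passed there by repeating the main fit. Of 95 named genes, 80 kept their direction in all settings that fitted them. Directions turned with array weights for Myc (0.0577); with the T cell covariate for Fas (0.0545), Rhag (-0.43), Hemgn (-0.31), Trp53inp1 (0.0732), Slc16a1 (-0.0316) and Il7r (0.0396); at the limit of 6.5 for Sox4 (-0.0136), Tap1 (0.0213), Rplp0 (0.0289), St13 (-0.0108), Slc2a1 (0.0076), Prdm11 (-0.0613, and -0.0083 with continuous Enpep) and Rag1 (-0.68). With 1 KO tumour left out, they turned for Myc (-0.42 to 0.26), Cd59a (-0.0428 to 0.44), Rhag (-0.32 to 0.84) and Hemgn (-0.23 to 0.63). Of 36 lists, 14 kept the sign of their median in all settings; the surrogate light chain, pro-B and pre-B, replication and mitosis lists were among those that turned. The causes were not tested. No paired analysis was possible because both sides lie within the KO group, where each replicate number occurs once.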

Other observations

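Genes outside the rule for named genes passed the adjusted threshold of limma in some alternative settings, and they were singled out after their values were seen. The clone 9630013D21Rik had a difference of 1.39 in the fit of all 18 tumours (adjusted p = 0.0222) and 1.43 with array weights (adjusted p = 0.0434). Without KO tumour 7, Gm525 had 4.32 (adjusted p = 0.00181). Without KO tumour 6, the leukotriene receptor gene Cysltr1 had -3.16 (adjusted p = 0.0326) and Scgb1a1, a secretoglobin, -1.74 (adjusted p = 0.0259). Over all probe sets, A530032D15Rik had -1.13 (adjusted p = 0.0352).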
